A study of Mus musculus with 6 samples.

Results

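The cluster of miR-212 and miR-132 consists of 2 microRNA hairpins that lie close together and yield 4 mature arms, mmu-miR-212-5p, mmu-miR-212-3p, mmu-miR-132-5p and mmu-miR-132-3p. The arms were found by name in a table of 1028 mature microRNAs, and all 4 were present. They were chosen by an earlier comparison of KO with EV in these same libraries, in which the changes differed between the arms, so their changes and arm ratios are given below as a description. Calls from fits across all microRNAs or hairpins are printed only beside the share called among all of them, and nothing about the arms is read from them. The cells were a mouse epicardial line grown in culture, and their microRNAs were counted from sequenced small RNA; the epicardium is the outer cell layer of the heart. The 3 KO libraries came from cells transduced with a lentivirus carrying an Hdac3 single-guide RNA for CRISPR/Cas9 knockout of Hdac3, a histone deacetylase of repressor complexes, and the 3 EV libraries from cells transduced with an empty-vector lentivirus. Both groups share the cell line, the medium and the lentiviral transduction. Neither the origin of the replicates (1 culture or several) nor whether the KO cells were 1 clone is stated in the labels, so any spread between replicates may be technical. Small-RNA counts do not measure Hdac3 mRNA, and the knockout was not checked here.

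In a microRNA hairpin, both sides of the stem can give a mature strand, named 5p or 3p by its side, and usually one of them is loaded into Argonaute more often and guides repression of mRNAs through its seed, bases 2 to 8. miR-132 and miR-212 are known to be transcribed together, in neurons under the transcription factor CREB, and their 3p arms repress messages such as those of the growth-arrest factor Foxo3 and of Rasa1, a brake on Ras signalling. In the mouse heart the pair is known to promote hypertrophy of cardiac muscle cells.

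The mature sequences are shown because the 3p arms share their seed and the 5p arms do not. Only the 3p reads of the 2 hairpins can thus be summed as reads of 1 seed. The sequences are given 5′ to 3′ from RefSeq (GRCm38.p6), with the seed in capitals.

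mmu-miR-212-3p: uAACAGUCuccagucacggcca

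mmu-miR-132-3p: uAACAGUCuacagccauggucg

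mmu-miR-212-5p: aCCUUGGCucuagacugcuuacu

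mmu-miR-132-5p: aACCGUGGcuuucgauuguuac

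Both 3p arms carry the seed AACAGUC, and among 1679 mature names of the RefSeq table no other mouse microRNA does. Of the 1028 microRNAs counted, 849 had a mature sequence there, and the others were not checked for the seed. The 3p arms have the same first 9 bases and match at 17 of 22 positions. From miR-212-3p to miR-132-3p, counted from 1 at the 5′ end, the differences are C10A, U14C, C17U, C20U and A22G, all outside the seed. The 5p arms match at only 9 of the first 22 positions, and each 5p seed belongs to that arm alone in the table. Each of the 4 mature sequences has 1 locus in the table. Both 3p arms begin with U and both 5p arms with A.

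The hairpins lie on the plus strand of chromosome 11, in the first intron of the non-coding gene 1700016P03Rik in GENCODE M21 (GRCm38). Mir212 spans chr11:75173388-75173478 and Mir132 spans chr11:75173682-75173747, with 203 bases between them. No annotated exon other than those of the microRNA genes overlaps either hairpin. The hairpins are printed with their mature arms in capitals, to show that in each the 5p arm comes first and the 3p arm after the loop.

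Mir212: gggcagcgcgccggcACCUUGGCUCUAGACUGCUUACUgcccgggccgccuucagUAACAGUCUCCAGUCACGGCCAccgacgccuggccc

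Mir132: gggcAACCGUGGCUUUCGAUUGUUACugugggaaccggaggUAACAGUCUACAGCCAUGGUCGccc

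**Figure D1:**
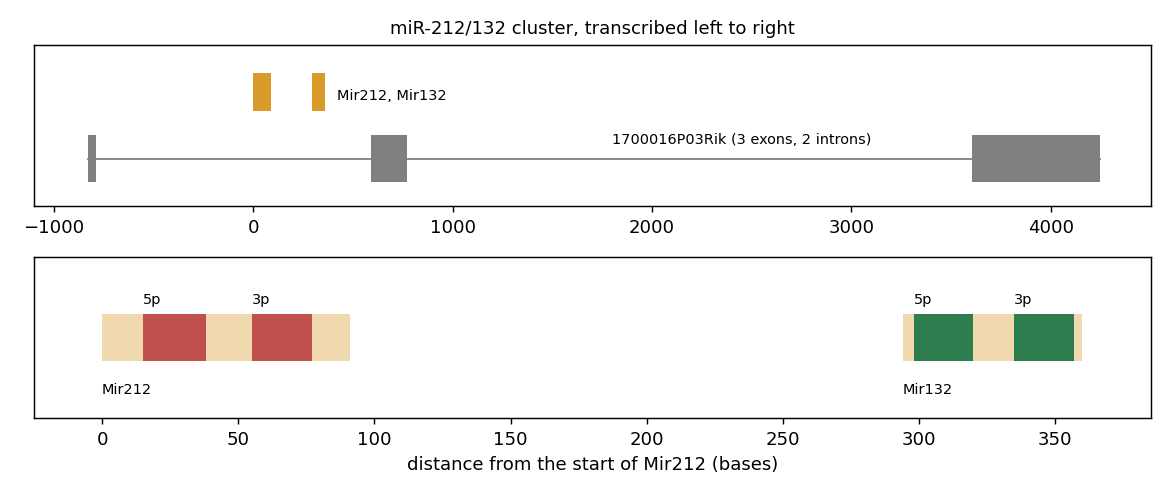
Map of the cluster, with distance in bases from the start of Mir212 on the x axis of both panels. The upper panel shows the exons of 1700016P03Rik (grey boxes) joined by introns (line) and the hairpins (orange), which both lie in the first intron; the lower panel shows the mature arms (red, miR-212; green, miR-132) inside the hairpins (pale), with 203 bases between the hairpins.

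The libraries held between 12720548 and 13412774 counts in KO and between 11824881 and 12806873 in EV. Levels are given as CPM, the count divided by the TMM-scaled library total (the total multiplied by a factor from edgeR that evens out composition) and multiplied by 1000000, so that 1 read was worth 0.0798 to 0.0819 CPM in KO and 0.0637 to 0.0892 CPM in EV. EV 1 had the highest TMM factor, 1.23, and the lowest share of its reads in miR-21a-5p, 63.0%, against 66.7% to 70.1% in the other libraries. Red-cell miR-451a was high in 1 library of each group, at 62.7 CPM in KO 2 and 54.7 CPM in EV 3 and at most 2.45 CPM elsewhere. Of markers of other cell types, the 5 epithelial microRNAs of the miR-200 family summed to 25.3 to 27.3 CPM in KO. In EV they summed to 41.4 to 50.03 CPM. Of the 4 tested, 2 were called lower by edgeR, where 7.61% of all 460 tested microRNAs were called in either direction. The muscle list, with 4 of 5 in the table, summed to 21.0 to 25.1 CPM in KO and 26.3 to 27.2 CPM in EV. None of the 2 tested members of this list was called, beside the same 7.61%. Its member miR-1a-3p went the other way, at a mean of 2.05 CPM in KO and 0.992 CPM in EV, so the sum does not describe every member. The endothelial list, with both of its 2 in the table, summed to 34.7 to 35.4 CPM in KO and 36.6 to 42.1 CPM in EV. The neuronal list reached 112 to 172 CPM in KO and 120 to 170 CPM in EV, and the blood list 6.0 to 78.1 CPM in KO and 8.73 to 68.2 CPM in EV. No marker in the table was at 0 in all libraries, and the part of other cell types in the values below was not tested. The 6 microRNAs of mesenchymal cells, miR-21a-5p among them, took 765489 to 837968 CPM in KO and 593902 to 842707 CPM in EV. Most of this was miR-21a-5p alone, at 676324 to 754475 CPM in KO and 513964 to 763066 CPM in EV. The sum thus says little about the other members.

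The cluster was scarce in these cells. All 4 arms together gave 213, 220 and 174 reads in KO 1, KO 2 and KO 3, and 317, 212 and 248 reads in EV 1, EV 2 and EV 3, which is 0.00182% of all counts. Of the 460 microRNAs that passed the filter on low counts, ranked by mean CPM from the highest, miR-132-3p was 261st, miR-132-5p 293rd, miR-212-5p 353rd and miR-212-3p 453rd. The filter asked for about 10 reads in 3 libraries, or 0.783 per 1000000 of the unscaled library total. miR-212-3p met it in all 3 KO libraries and in 0 of the EV libraries, so that its presence among the tested microRNAs rests on the group in which it was higher.

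miR-132-3p, the most abundant arm and the main carrier of the shared seed, was slightly lower on average in KO, with overlapping groups. It had 115, 101 and 95 reads in KO 1, KO 2 and KO 3, and 157, 106 and 124 reads in EV 1, EV 2 and EV 3. These were 9.32, 8.06 and 7.78 CPM in KO, against 10.0001, 8.65 and 11.1 CPM in EV. KO 1 lay above EV 2, and the other KO libraries lay below every EV library. The mean was 8.39 ± 0.823 CPM in KO and 9.91 ± 1.21 CPM in EV (SD, n = 3 each), a log2 change of -0.24 (SE 0.16, 95% interval -0.59 to 0.11). The fitted intervals of the arms, here and below, come from the contrast by which the arms were chosen and are no test.

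miR-212-3p, which carries the same seed, was the scarcest arm and was higher in KO. It had 12, 13 and 12 reads in KO 1, KO 2 and KO 3, and 9, 8 and 7 reads in EV 1, EV 2 and EV 3, or 0.973, 1.04 and 0.983 CPM in KO against 0.573, 0.653 and 0.625 CPM in EV. Every KO library lay above every EV library. The means were 0.997 ± 0.0345 CPM in KO and 0.617 ± 0.0404 CPM in EV (SD, n = 3 each), a fitted log2 change of 0.69 (SE 0.40, 95% interval -0.20 to 1.58). Counting error was wider than these SDs: exact 95% Poisson intervals for a single library reached from 6.20 to 21.0 reads for the 12 reads of KO 1 and from 4.12 to 17.1 reads for the 9 reads of EV 1. Summed over the group, there were 37 reads in KO (26.1 to 51.0) and 24 reads in EV (15.4 to 35.7), unscaled, with intervals that cover counting error only and are no test of the difference.

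Because the 3p arms share a seed, their reads were also summed as reads of that seed, which does not measure targeting activity. Their summed level was 10.3 CPM in KO 1, 9.09 CPM in KO 2 and 8.76 CPM in KO 3, against 10.6 CPM in EV 1, 9.30 CPM in EV 2 and 11.7 CPM in EV 3. The groups overlapped, with KO 1 above EV 2. The means were 9.38 ± 0.808 CPM in KO and 10.5 ± 1.19 CPM in EV (SD, n = 3 each), a log2 ratio of means of -0.17. miR-212-3p made up 9.45%, 11.4% and 11.2% of these reads in the KO libraries and 5.42%, 7.02% and 5.34% in the EV libraries. miR-132-3p thus supplied most of the summed reads in all 6.

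miR-212-5p, the strand opposite miR-212-3p, was lower in every KO library. It had 23, 23 and 21 reads in KO 1, KO 2 and KO 3, and 69, 31 and 32 reads in EV 1, EV 2 and EV 3. In CPM it stood at 1.86, 1.83 and 1.72 in KO, against 4.39, 2.53 and 2.86 in EV. EV 1 was the highest of the 6 libraries, and every KO library lay below every EV library. The means were 1.81 ± 0.0765 CPM in KO and 3.26 ± 0.996 CPM in EV (SD, n = 3 each), a log2 change of -0.87 (SE 0.25, 95% interval -1.44 to -0.30). Without EV 1, which was also the library with the highest TMM factor, the log2 change was -0.57 (SE 0.24). The authors' deposited table lists 78 microRNAs with adjusted p-values up to 0.0488, beside 1028 microRNAs counted. It holds miR-212-5p and no other arm of the cluster. The entry has mean normalized counts of 22.5 in KO and 41.3 in EV and a log2 fold change of -0.75. That fold change is smaller in size than the plain log2 ratio of the 2 means. Its adjusted p in the authors' own test was 0.0459, near the end of the list. The entry comes from these same libraries and is no independent evidence.

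miR-132-5p, the strand opposite miR-132-3p, varied among replicates as much as between groups. It had 63, 83 and 46 reads in KO 1, KO 2 and KO 3, and 82, 67 and 85 reads in EV 1, EV 2 and EV 3, or 5.11, 6.62 and 3.77 CPM in KO against 5.22, 5.47 and 7.58 CPM in EV. KO 2 lay above EV 1 and EV 2, while KO 3 was the lowest of all. The means were 5.16 ± 1.43 CPM in KO and 6.09 ± 1.30 CPM in EV (SD, n = 3 each), a log2 change of -0.23 (SE 0.23, 95% interval -0.74 to 0.28). Leaving out 1 library at a time moved it between -0.44 (without KO 2) and -0.05 (without EV 3).

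**Figure D2:**
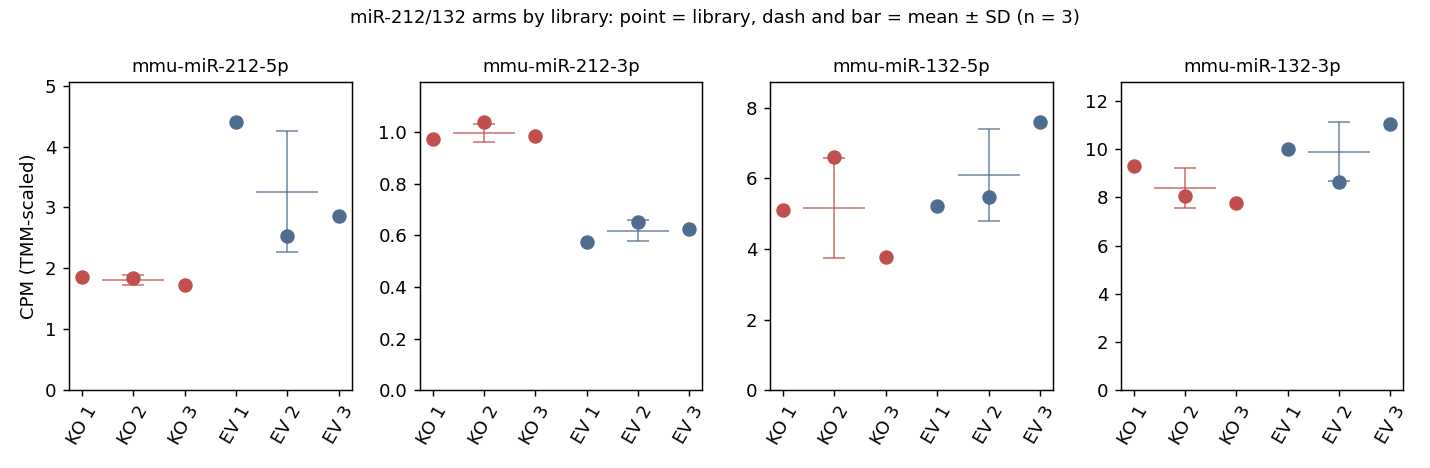
CPM of each arm (y axis, a separate linear scale from 0 in each panel) in the 3 KO and 3 EV libraries (x axis); points are libraries, and the dash with its bar is the group mean ± SD (n = 3). The KO points lie below all EV points for miR-212-5p and above them for miR-212-3p, and the groups overlap for both miR-132 arms.

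edgeR's quasi-likelihood test, with Benjamini-Hochberg adjustment over all 460 tested microRNAs, was read at an adjusted p under 0.05. It called 0 of the 4 arms, against 7.61% of all tested microRNAs. DESeq2 and limma-voom also called 0 of the 4 arms, where they called 46 and 38 microRNAs in all. The groups did not overlap for 2 arms, miR-212-5p and miR-212-3p, against 29.1% of all tested microRNAs. Nothing is read from these counts, since the arms were chosen from the same contrast.

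The balance of the arms within a hairpin needs no scaling factor, because both arms are read in the same library. For miR-212 the 3p arm gave 34.3%, 36.1% and 36.4% of the hairpin's reads in KO 1, KO 2 and KO 3 (12 of 35, 13 of 36 and 12 of 33 reads), and 11.5%, 20.5% and 17.9% in EV 1, EV 2 and EV 3 (9 of 78, 8 of 39 and 7 of 39 reads). The 5p arm thus had more reads in all 6 libraries. The 3p share was higher in each KO library than in any EV library. The mean 3p share was 35.6% ± 1.13 in KO and 16.7% ± 4.62 in EV (SD, n = 3 each). Exact 95% Clopper-Pearson intervals for single libraries, which cover counting error only, were wide, for example from 19.1% to 52.2% in KO 1 and from 9.30% to 36.5% in EV 2. EV 1, with the lowest 3p share, gave 78 of the 156 miR-212 reads in EV.

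For miR-132 the 3p arm was the more abundant, at 64.6%, 54.9% and 67.4% of the hairpin's reads in KO 1, KO 2 and KO 3, and 65.7%, 61.3% and 59.3% in EV 1, EV 2 and EV 3. KO held both the highest and the lowest value. The mean 3p share was 62.3% ± 6.56 in KO and 62.1% ± 3.26 in EV (SD, n = 3 each). The arm with more reads thus differed between the neighbouring hairpins, 5p for miR-212 and 3p for miR-132, in every library. Counting error alone included equal shares in some. The exact 95% intervals of the miR-212 3p share reached 52.2%, 53.8% and 54.9% in KO 1, KO 2 and KO 3. That of the miR-132 3p share in KO 2 began at 47.4%. Adaptor ligation favours some ends over others, so a share of reads within a library is not a share of molecules.

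**Figure D3:**
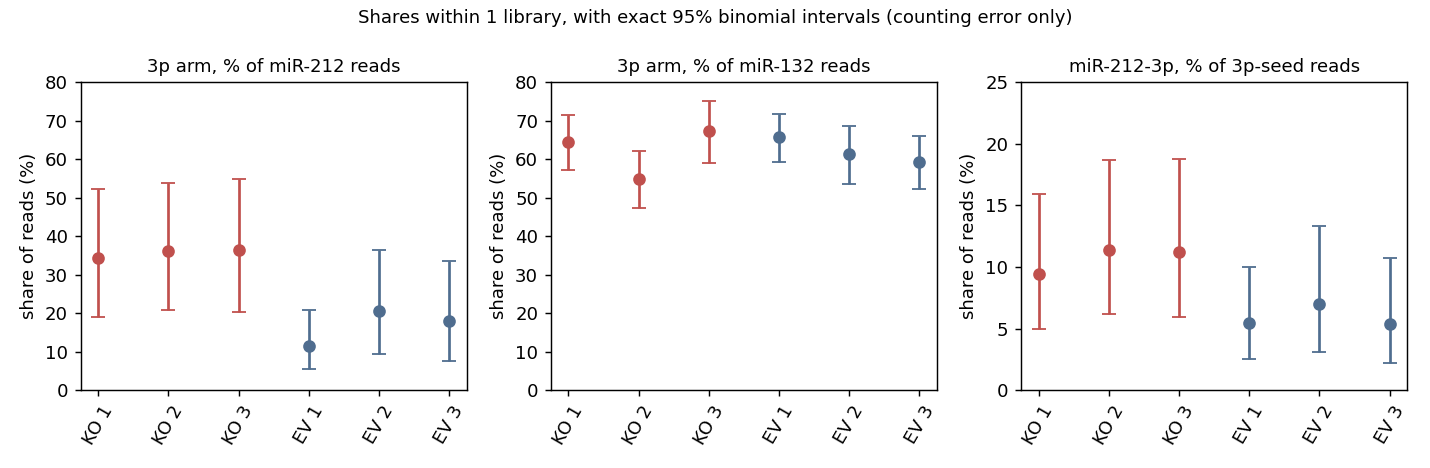
Share of reads in percent (y axis, separate scales) in each KO and EV library (x axis) for the 3p arm among miR-212 reads, the 3p arm among miR-132 reads, and miR-212-3p among reads with the shared 3p seed; bars are exact 95% binomial intervals that cover counting error only. The miR-212 3p share lies at 34.3% to 36.4% in KO and 11.5% to 20.5% in EV, while the miR-132 shares of the groups overlap.

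As log2 ratios of 3p over 5p, with 0.5 reads added to each arm, miR-212 stood at -0.91, -0.80 and -0.78 in KO 1, KO 2 and KO 3, and at -2.87, -1.89 and -2.12 in EV 1, EV 2 and EV 3. The KO minus EV difference was 1.46 (SE 0.31), a 2.75-fold higher ratio of 3p to 5p, beside fitted log2 changes of -0.87 for the 5p arm and 0.69 for the 3p arm. It was 1.17 without EV 1. The same difference for miR-132 was 0.02 (SE 0.28), with means of 0.73 ± 0.40 in KO and 0.71 ± 0.20 in EV (SD, n = 3 each).

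Arms of the same side can also be compared across the hairpins. The log2 ratio of miR-212-3p over miR-132-3p was -3.02 ± 0.17 in KO and -3.92 ± 0.23 in EV (SD, n = 3 each), a difference of 0.90, with every KO library above every EV library. The log2 ratio of miR-212-5p over miR-132-5p was -1.46 ± 0.36 in KO and -0.91 ± 0.60 in EV (SD, n = 3 each), a difference of -0.54, with overlapping groups, and of -0.21 without EV 1. Among the 4 arms, miR-212-3p was the only one with a mean above that of EV. The reads of the miR-212 hairpin as a share of the cluster were 17.3% ± 1.48 in KO and 19.6% ± 4.56 in EV (SD, n = 3 each), and summed over both its arms miR-212 stood at 2.84, 2.87 and 2.70 CPM in KO, against 4.97, 3.18 and 3.48 CPM in EV.

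Among the 133 hairpins with both arms tested, miR-212 had the largest difference in arm ratio, a measure from the contrast by which the arms were chosen. It was among the 133 only because miR-212-3p passed the filter in the 3 KO libraries. In EV that arm passed in 0 libraries, so nothing is read from the rank. The miR-212 hairpin was also among the least covered. Its arms summed to 43.3 reads per library on average, and 2 hairpins had fewer. The size of the difference had a median of 0.14 over all 133 hairpins and of 0.28 over the 15 with at most 100 reads per library, where the next largest, miR-195a, was at -0.90 and leaned the other way. limma with Benjamini-Hochberg adjustment over the 133 hairpins called 0 arm ratios (0%), and 9 had an unadjusted p under 0.05. The 3 KO ratios lay entirely above or below the 3 EV ratios for 1 of the 2 hairpins of the cluster, against 12.0% of all 133. The arms of a hairpin had fitted changes of opposite sign in 28 of the 133, miR-212 among them, and 5p was on average the more abundant arm in 75.

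**Figure D4:**
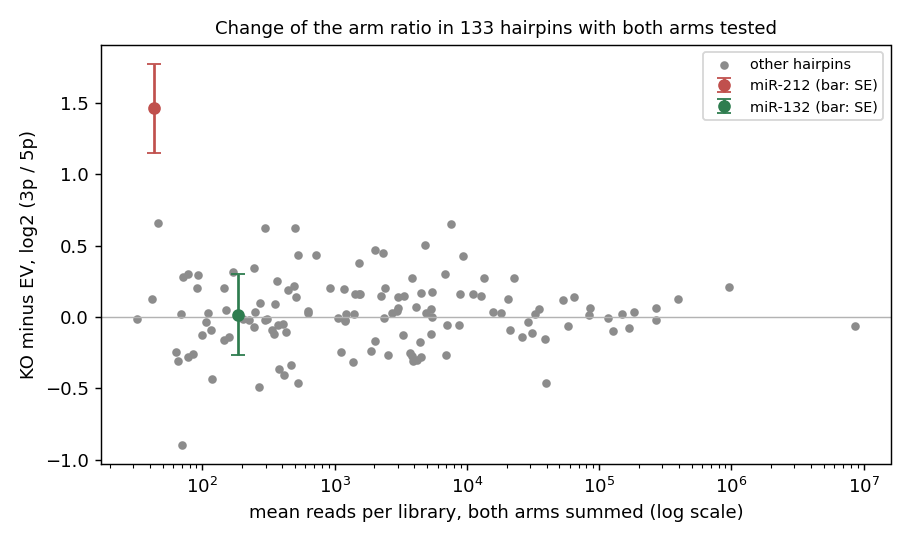
KO minus EV difference of log2 (3p over 5p) for each of 133 hairpins (y axis) against the mean reads of its arms per library (x axis, log scale). miR-212 (red, 1.46, bar SE) lies above all other hairpins at 43.3 reads per library, and miR-132 (green, 0.02, bar SE) lies at 0. The place of miR-212 is a description, since the arms were chosen by this contrast and miR-212-3p passed the filter through KO alone.

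By the root-mean-square difference of mean-centred log2 CPM over the 6 libraries, the microRNAs with the profiles most like each arm were as follows, as a description with no test. The nearest to miR-212-3p were miR-101a-3p (0.0970), miR-34a-5p (0.107), which is known as a p53 target, and miR-503-5p (0.111), against a median of 0.399 over all tested microRNAs. Their log2 changes were 0.57, 0.79 and 0.60, and edgeR called all 3 higher in KO, a direction that choosing them for this profile fixed. The nearest to miR-212-5p were miR-323-3p (0.176), miR-181a-2-3p (0.195) and miR-149-5p (0.202), against a median of 0.516, at log2 changes of -0.59, -0.63 and -0.47, of which edgeR called miR-181a-2-3p lower, again a direction fixed by the choice. For miR-132-3p they were miR-181d-5p (0.0941), miR-126a-3p (0.0974) and miR-181a-5p (0.102), and for miR-132-5p miR-331-5p (0.171), miR-669f-5p (0.191) and miR-130b-5p (0.213), none of them called. Between the arms themselves the closest pair was miR-132-5p with miR-132-3p (0.256) and the farthest miR-212-5p with miR-212-3p (0.790).

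Within 1 Mb of the cluster, the other microRNAs of the table were the arms of miR-22, a microRNA known for promoting heart muscle growth, whose hairpin lies 290 kb downstream at chr11:75463716-75463810 on the same strand. Neither was called by edgeR. miR-22-3p had 4440 ± 199 CPM in KO and 4574 ± 168 CPM in EV (SD, n = 3 each; log2 change -0.04, 95% interval -0.21 to 0.12), and miR-22-5p had 64.8 ± 2.60 CPM in KO and 64.0 ± 6.27 CPM in EV (log2 change 0.02, 95% interval -0.23 to 0.27).

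Other microRNAs of the processes for which the cluster is known were counted in lists that leave out the cluster. The median log2 change over all tested microRNAs was -0.01. The lists were chosen with earlier results of these data known, so their calls are a description. Of 12 microRNAs of heart muscle growth, 8 were tested, 1 rose and 7 were not called by edgeR, with a median of 0.27, where 7.61% of all tested microRNAs were called. The one that rose was miR-23a-3p, a microRNA that promotes hypertrophy, at 316 ± 13.7 CPM in KO and 226 ± 2.15 CPM in EV (SD, n = 3 each), a log2 change of 0.49 with an SE of 0.07 and an adjusted p of 0.00346 in the edgeR test. Of 11 microRNAs of vessel growth, 10 were tested, 1 rose and 9 were not called, with a median of 0.20, beside the same 7.61%. miR-503-5p, which acts in endothelial cells, was the one that rose, at 543.5 ± 21.3 CPM in KO and 358 ± 17.0 CPM in EV (SD, n = 3 each), a log2 change of 0.60 with an SE of 0.07 and an adjusted p of 0.00186 in the edgeR test. With library size alone in place of TMM factors, neither the heart growth list nor the vessel growth list had a called member (0 in each). Nothing about heart or vessel growth is read from 1 called member of 8 and 1 of 10. Of 12 neuronal microRNAs, 9 were tested and none was called, with a median of -0.08, and the most abundant, miR-125b-5p, had a log2 change of 0.21 (SE 0.07).

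**Figure D5:**
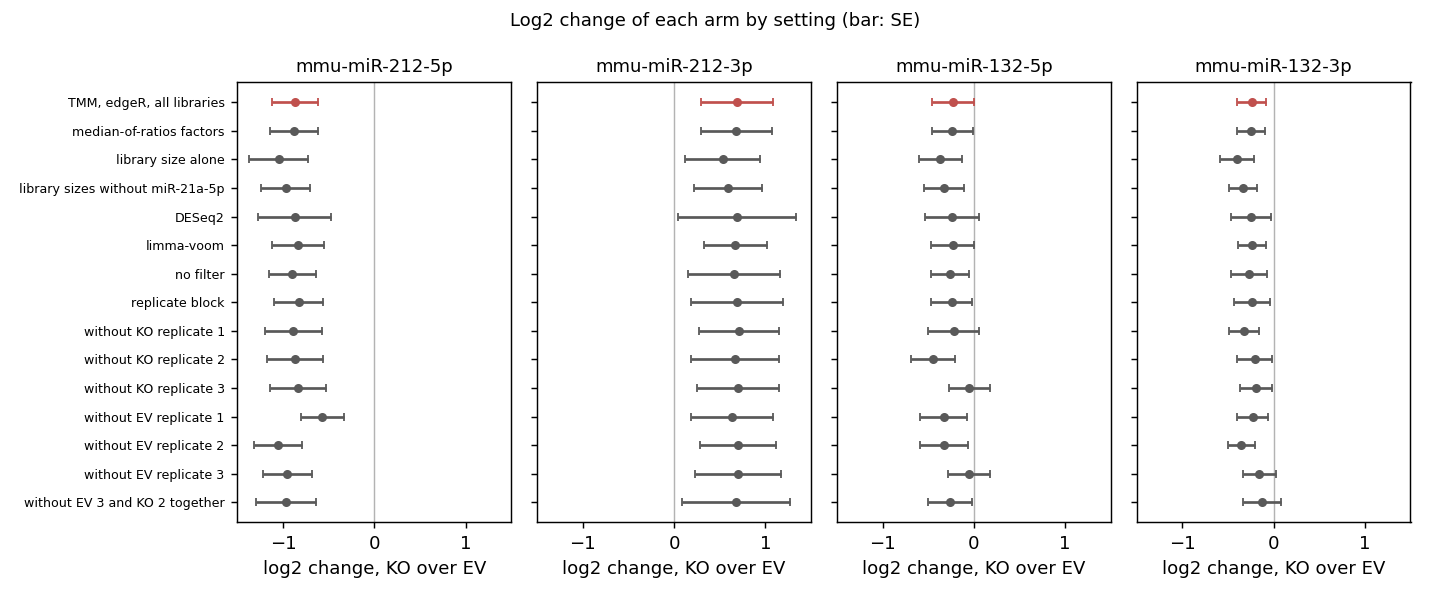
Log2 change of each arm, KO over EV (x axis, bar SE), under each scaling, test, filter and set of libraries (y axis); the red point is the edgeR fit with TMM factors on all 6 libraries. No point of any arm crosses 0, and miR-212-5p ranges from -1.05 (without EV 2) to -0.57 (without EV 1). Some SE bars of the miR-132 arms do cross 0. Without EV 3, for example, miR-132-5p is at -0.05 (SE 0.23) and miR-132-3p at -0.16 (SE 0.18).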

How the data were processed

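Small-RNA libraries of 3 KO and 3 EV samples were built by ligating adaptors to both RNA ends and size-selected on a gel, per the labels' protocols. The authors deposited whole-number read counts and TPM values (counts per 1000000 counted microRNA reads; not tested) for 1028 mature microRNAs, 17 of them predicted. The authors' deposited table of 78 microRNAs gives for each group an averaged normalized signal without its spread, and beside it the log2 fold change and p-values. Bowtie, the mm10 build and DESeq 1.8.3 are named in the submitters' processing notes; the handling of reads matching several microRNAs and the miRBase release are not given in the sources used here. No molecular identifiers are mentioned, so PCR copies count as reads and intervals cover counting error only.

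The deposited counts were tested with edgeR 4.0.16 (R 4.3.3): filterByExpr (minimum count 10, minimum total 15), TMM factors, quasi-likelihood F test (two-sided), Benjamini-Hochberg adjustment at 0.05. Standard errors were taken from the fold change and its F value. Arm ratios, log2 of 3p over 5p counts with 0.5 added, were fitted with limma 3.58.1 over hairpins with both arms tested. Both fits were tested on simulated data. Alternatives were library size alone, library sizes without miR-21a-5p, median-of-ratios factors, DESeq2 1.42.0, limma-voom, 2 other filters, 2 reads added to each arm, a replicate block and omitted libraries.

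The members, the lists and the alternatives were chosen with earlier results of these data known. The text names all 4 arms, the 3 microRNAs of nearest profile for each, the called or else most abundant member of each list, and microRNAs within 1 Mb or with the same seed. Mature and hairpin sequences matched for 4 of 4 arms (RefSeq, GRCm38.p6). Promoter motifs, planned for Mir212 and Mir132, were not analysed here.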

Additional observations from a re-analysis of the deposited data

How the results depend on the processing

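The 4 log2 changes kept their sign in all 14 alternatives that could be fitted; with at least 10 CPM in 3 libraries no arm was left. miR-212-5p ran from -1.05 to -0.57, miR-212-3p from 0.64 to 0.71, miR-132-5p from -0.44 to -0.05 and miR-132-3p from -0.35 to -0.16 when 1 library was left out. miR-212-3p was 0.53 with library size alone, which moved the median of all microRNAs to -0.16, and 0.59 when miR-21a-5p was left out of the library sizes, which moved it to -0.11. miR-212-5p was called without the filter, without EV 3, and without EV 3 and KO 2 together, and in no other fit, from which nothing is read since it was chosen from this contrast.

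The miR-212 arm ratio ran from 1.17 to 1.66, miR-212-3p over miR-132-3p from 0.83 to 1.03 and miR-212-5p over miR-132-5p from -0.79 to -0.21 with 1 library left out, while the miR-132 arm ratio ran from -0.14 to 0.24 and so took either sign. Called arm ratios stayed at 0 in all alternatives run.

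Called microRNAs numbered 35, and 5 with library size alone, 56 without the filter, 88 without EV 3 and KO 2, and 15 to 59 with 1 library left out. Library size alone gave 1 higher and 4 lower, and leaving miR-21a-5p out of the sizes 18 higher and 25 lower, against 23 and 12. In the edgeR fit with TMM factors, the heart growth, vessel growth and neuronal lists had 8, 10 and 9 members tested. That fit called 7.61% of all tested microRNAs. The heart growth list had 0 called with library size alone, 2 without the filter and 4 without EV 3 and KO 2. The vessel growth list had 0 with library size alone, 2 with DESeq2, with limma-voom and with the 10 CPM filter, and 3 without EV 3 and KO 2, and the neuronal list 1 without EV 3 and KO 2. With 1 library left out, the lists had 1 to 3, 1 to 2 and 0 to 1 called. The totals over all microRNAs moved too, and were 46 with DESeq2, 38 with limma-voom and 44 with the 10 CPM filter. Nothing about the lists is read from these counts. The cause of the moves was not tested.

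Whether equal replicate numbers pair the libraries cannot be told from so few libraries. Deviations of same-numbered libraries correlated at 0.34, 0.05 and -0.19. Those of differently numbered libraries ran from -0.52 (EV 1 with KO 2) to 0.43 (EV 3 with KO 2). With a replicate block 34 microRNAs were called.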
